A study of Fragaria x ananassa with 9 samples.

Results

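SEOA and SEOB are 2 unigenes of pink-flowered strawberry petals whose closest protein matches are SIEVE ELEMENT OCCLUSION A and SIEVE ELEMENT OCCLUSION B of Arabidopsis. They were picked by identifier (SEOA, TRINITY_DN13210_c0_g1, and SEOB, TRINITY_DN24911_c1_g1) out of 50285 unigenes, because their level was far lower in the big bud than at the beginning of coloration. Their own values are therefore given as a description without a test. Petals of the cultivar Sijihong, a cross of Pink Princess and Pretty Beauty, were taken from the young bud (PF_L), at the beginning of coloration (PF_Z) and from the big bud (PF_D). Each stage had 3 biological replicates, all from this untreated cultivar, and how many flowers or plants went into a replicate is not given in the sources used here. The question put to the 3 stages in the study was how petals gain their color, and the phloem unigenes described here were measured in the same libraries.

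Sieve elements are the living conducting cells of the phloem, which carry sugars and signals to growing organs such as petals. They lose their nucleus as they mature and depend on neighbouring companion cells. SEO proteins are the structural phloem proteins that form filaments inside sieve elements, and in legumes the related forisomes swell and plug the sieve tube after wounding. In Arabidopsis both SEOA and SEOB are needed for the filaments to form.

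The values are TPM, a transcript level corrected for unigene length and brought to a common library total. Levels of different unigenes can be set side by side, but less surely where a unigene is only part of a transcript. A unigene is named after its closest protein match, and the name marks a likely relative of a characterized gene. The SEOA unigene is 822 bp long and matched the woodland strawberry locus LOC101297774. The SEOB unigene is 643 bp long and matched LOC101296807. For both, the first domain listed in the deposited annotation was the amino-terminal SEO domain, and any further domain was not read. Both are much shorter than the SEO unigenes of 2152 bp and more described later, and whether they are whole transcripts was not tested. Cultivated strawberry holds several near-identical copies of most genes, and how the assembly divided their reads was not tested.

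In PF_L, SEOA had 295, 293 and 291 TPM in replicates 1, 2 and 3. In PF_Z it had 218, 211 and 243 TPM. In PF_D it had 3.97, 5.18 and 11.4 TPM. The 3 stages did not overlap, and the PF_D libraries lay far below all 6 others. SEOA averaged 293 ± 2.25 TPM in PF_L, 224 ± 16.7 TPM in PF_Z and 6.84 ± 3.97 TPM in PF_D (SD, n = 3 each). The PF_L libraries were nearly equal, while in PF_D replicate 3 was the highest of its stage.

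SEOB was the more abundant of the pair in every library. It had 665, 614 and 719 TPM in replicates 1, 2 and 3 of PF_L, then 413, 306 and 464 TPM in PF_Z and 7.32, 5.76 and 24.2 TPM in PF_D. Here too no library of one stage reached the range of another, and replicate 3 was the highest of PF_D. Stage means were 666 ± 52.6 TPM in PF_L, 395 ± 80.5 TPM in PF_Z and 12.4 ± 10.2 TPM in PF_D (SD, n = 3 each).

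**Figure D1:**
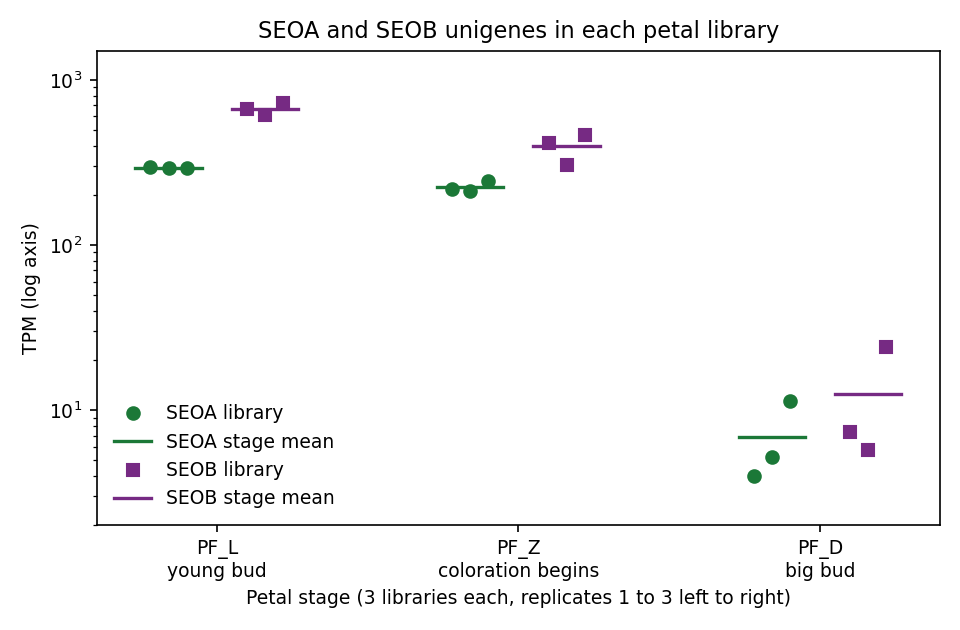
TPM of SEOA (circles) and SEOB (squares) in each of the 9 petal libraries, on a log axis, with the stage mean as a line. For both unigenes the 3 libraries of PF_D (3.97 to 11.4 TPM for SEOA, 5.76 to 24.2 TPM for SEOB) lie below every library of PF_L and PF_Z.

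On the log2 scale, most of the difference between the young and the big bud lay in the later step. The pair was chosen for its fall in that step, so this share is partly set by the choice. In TPM the earlier step weighs more, as SEOB averaged 666 TPM in PF_L, 395 TPM in PF_Z and 12.4 TPM in PF_D. On the log2(TPM + 1) scale SEOA differed by -4.95 between PF_D and PF_Z (standard error 0.28), by -5.34 between PF_D and PF_L and by -0.39 between PF_Z and PF_L, so that 92.7% of its log2 difference lay between PF_Z and PF_D. For SEOB the differences were -5.12 (standard error 0.41), -5.89 and -0.77, with 86.9% in the later step. The level of SEOA in PF_D was 3.05% of that in PF_Z and 2.34% of that in PF_L, and its PF_Z level was 76.5% of that in PF_L. The level of SEOB in PF_D was 3.15% of that in PF_Z and 1.86% of that in PF_L, and its PF_Z level was 59.2% of that in PF_L. These 3 comparisons use the same libraries and so are not independent of each other. In such whole-petal samples, fewer sieve elements and less SEO transcript per sieve element cannot be told apart.

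In the young bud both unigenes were among the most abundant transcripts of the petal. SEOB ranked 97 to 129 among all 50285 unigenes in the PF_L libraries, 207 to 432 in PF_Z and 7943 to 19605 in PF_D. SEOA ranked 397 to 423 in PF_L, 524 to 673 in PF_Z and 13705 to 23198 in PF_D. Even so, neither unigene was listed at 0 in any library.

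The ratio of SEOB to SEOA is built from the same values that chose the pair. It is likewise given as a description, and nothing is read from a test of it. It was 2.25, 2.10 and 2.48 in the PF_L libraries, 1.89, 1.45 and 1.91 in PF_Z and 1.84, 1.11 and 2.12 in PF_D. The ratios of PF_Z and PF_D overlapped, while all 3 PF_L libraries were above all PF_Z libraries and PF_D replicate 3 lay within the range of PF_L. The log2 ratio of the values plus 1 averaged 1.18 ± 0.12 in PF_L, 0.80 ± 0.22 in PF_Z and 0.63 ± 0.46 in PF_D (SD, n = 3 each).

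Both courses were very alike. Likeness was measured as the root mean square difference of log2(TPM + 1) profiles over the 9 libraries, each centred on its own mean, among 10997 named unigenes with at least 10 TPM in the highest stage. SEOB was the nearest to SEOA and SEOA the nearest to SEOB, at 0.337 log2 units, against a median over all candidates of 2.46 for SEOA and 2.67 for SEOB. A small distance is partly set by the choice of both unigenes for the same step, and it says nothing of shared control. After SEOB, the unigenes nearest to SEOA were SPT (0.475), a relative of the transcription factor SPATULA of carpel and fruit development, TT2 (0.517), named for a MYB regulator of proanthocyanidin synthesis, BGLU44 (TRINITY_DN26551_c1_g3, 0.522), a beta-glucosidase, a thaumatin-like protein (At1g18250, 0.524) and IQM4 (0.529), an IQ-domain protein. After SEOA, those nearest to SEOB were SPL4 (0.535), an SBP-box relative of regulators of the change to flowering, 2 BGLU44 unigenes (TRINITY_DN26551_c1_g4, 0.567, and TRINITY_DN26551_c1_g3, 0.620), the same TT2 unigene (0.597) and the laccase LAC14 (0.628). SPT averaged 38.2 TPM in PF_L, 25.7 TPM in PF_Z and 0.64 TPM in PF_D, and SPL4 377, 173 and 8.68 TPM in the same stages. LAC14 averaged 65.6 TPM in PF_L and 24.5 TPM in PF_Z and was listed at 0 in all 3 PF_D libraries.

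A further 7 unigenes were described as SIEVE ELEMENT OCCLUSION proteins, and all 7 were tested. Values were compared as log2(TPM + 1) with limma over 47924 unigenes, and a call needed an absolute log2 fold change of 1 or more together with an adjusted p (Benjamini-Hochberg) below 0.05. In PF_D against PF_Z, 5 of the 7 fell, 1 rose and 1 was not called. Over all tested unigenes 9.07% were called lower and 8.89% higher in this comparison. In PF_D against PF_L, 2 fell, 1 rose and 4 were not called, where 15.7% of all unigenes were called lower and 9.38% higher. In PF_Z against PF_L none of the 7 was called by limma, where 6.84% of all unigenes were called. TRINITY_DN22318_c0_g1 (log2 fold change 0.68, adjusted p = 0.0348) and TRINITY_DN22153_c0_g2 (0.92, adjusted p = 0.0246) were higher in PF_Z and passed the p limit but not the fold limit. The share of all unigenes that passed the p limit alone was not counted. The lowest log2 fold change of the 7 was that of TRINITY_DN24911_c1_g2 (-0.94, adjusted p = 0.146). Over all unigenes, the split of calls in PF_Z against PF_L depended on scaling, at 2251 lower and 1029 higher as deposited, 1439 and 1419 after scaling by median ratios and 1439 and 1470 after quantile normalization. In PF_D against PF_L it was 7545 lower and 4497 higher as deposited and 6102 and 5481 after quantile normalization. The median log2 fold change of the 7 was -1.104 for PF_D against PF_Z (all tested unigenes 0.08), -0.90 for PF_D against PF_L (-0.12) and 0.14 for PF_Z against PF_L (-0.21).

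One SEO unigene ran opposite to SEOA and SEOB. It is another relative of SEOB (TRINITY_DN13962_c0_g1, 2945 bp, matching LOC101298363), also with the amino-terminal SEO domain listed first. It had 245, 553 and 319 TPM in replicates 1, 2 and 3 of PF_D, against 42.0, 28.6 and 46.4 TPM in PF_Z. The PF_L libraries were at 40.0, 40.3 and 43.8 TPM, close to those of PF_Z. All PF_D libraries lay far above the highest earlier library. Its log2 fold change was 3.17 for PF_D against PF_Z (standard error 0.28, limma adjusted p = 5.5e-05), 3.05 for PF_D against PF_L (adjusted p = 2.7e-05) and -0.11 for PF_Z against PF_L (adjusted p = 0.834). Both rises were called under all 20 alternatives, with log2 fold changes of 2.84 to 3.42 for PF_D against PF_Z and 2.73 to 3.31 for PF_D against PF_L.

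Another relative of SEOB lay in the same assembly component as SEOB itself (TRINITY_DN24911_c1_g2, 2606 bp). It matched another woodland strawberry locus, LOC101298064, and its first listed domain was the carboxy-terminal SEO domain. Whether it shares reads with SEOB was not tested. It had 9.39, 37.3 and 19.6 TPM in PF_D, against 123, 101 and 125 TPM in PF_Z. In PF_L it had 184, 267 and 225 TPM, and no stages overlapped. It fell in PF_D against PF_Z by 2.53 on the log2 scale (standard error 0.38, limma adjusted p = 0.00103) and in PF_D against PF_L by 3.47 (adjusted p = 8.1e-05). Both calls were made under all 20 alternatives. The log2 fold change of PF_Z against PF_L, -0.94, was not called (adjusted p = 0.146). Its profile was 1.15 log2 units from that of SEOA (rank 158 of 10997) and 1.38 from that of SEOB (rank 203).

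Of the remaining 5 unigenes, 4 had their highest mean at the beginning of coloration, 3 of intermediate abundance and 1 rare one, and the fifth was rare as well. None of the 4 was called higher in PF_Z than in PF_L on the deposited values. For TRINITY_DN22318_c0_g3 and TRINITY_DN22290_c1_g1 the libraries of these 2 stages overlapped (limma adjusted p = 0.23 and 0.796). A relative of SEOA (TRINITY_DN22318_c0_g1) averaged 9.26 ± 0.33 TPM in PF_L, 15.5 ± 1.78 TPM in PF_Z and 4.46 ± 0.67 TPM in PF_D (SD, n = 3 each). A relative of SEOB (TRINITY_DN22153_c0_g2) averaged 9.57 ± 1.04 TPM in PF_L, 19.1 ± 1.91 TPM in PF_Z and 4.28 ± 1.29 TPM in PF_D. A relative of SEOB from the first one's assembly component (TRINITY_DN22318_c0_g3) averaged 5.07 ± 1.14 TPM in PF_L, 7.34 ± 1.35 TPM in PF_Z and 2.87 ± 0.55 TPM in PF_D. All 3 fell in PF_D against PF_Z, by 1.59, 1.95 and 1.104 on the log2 scale (standard errors 0.17, 0.21 and 0.23, limma adjusted p = 0.000161, 0.000179 and 0.00611). TRINITY_DN22153_c0_g2 was also called lower in PF_D against PF_L, by 1.03 (adjusted p = 0.00395), a call lost after scaling by median ratios (-0.90), after quantile normalization (-0.83), with 5 added to the TPM (-0.66), without PF_L replicate 1 (-0.95) and without PF_D replicate 2 (-0.81). Its PF_Z against PF_L value of 0.92 (adjusted p = 0.0246) became a call after those scalings (1.14 and 1.13) and without PF_Z replicate 2 (1.01).

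The only relative of SEOC (TRINITY_DN22290_c1_g1, 545 bp) was rare, at 1.37 ± 0.36 TPM in PF_L, 1.64 ± 0.57 TPM in PF_Z and 0.27 ± 0.17 TPM in PF_D. It was called lower in PF_D against PF_Z, by 1.04 (standard error 0.30, limma adjusted p = 0.0272). Without PF_Z replicate 2 or 3 or PF_D replicate 2 or 3 the adjusted p was 0.0551, 0.0753, 0.102 and 0.0739, and the call was lost. The fall of TRINITY_DN22318_c0_g3 came to -0.99 without PF_Z replicate 3 and also without PF_D replicate 2, under the limit of 1. With either of those libraries left out, or with 5 added to the TPM, 3 of the 7 unigenes were called lower in place of 5. A very short relative of SEOA (TRINITY_DN7142_c0_g1) ran from 0 to 4.39 TPM over all libraries and was not called in any comparison.

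**Figure D2:**
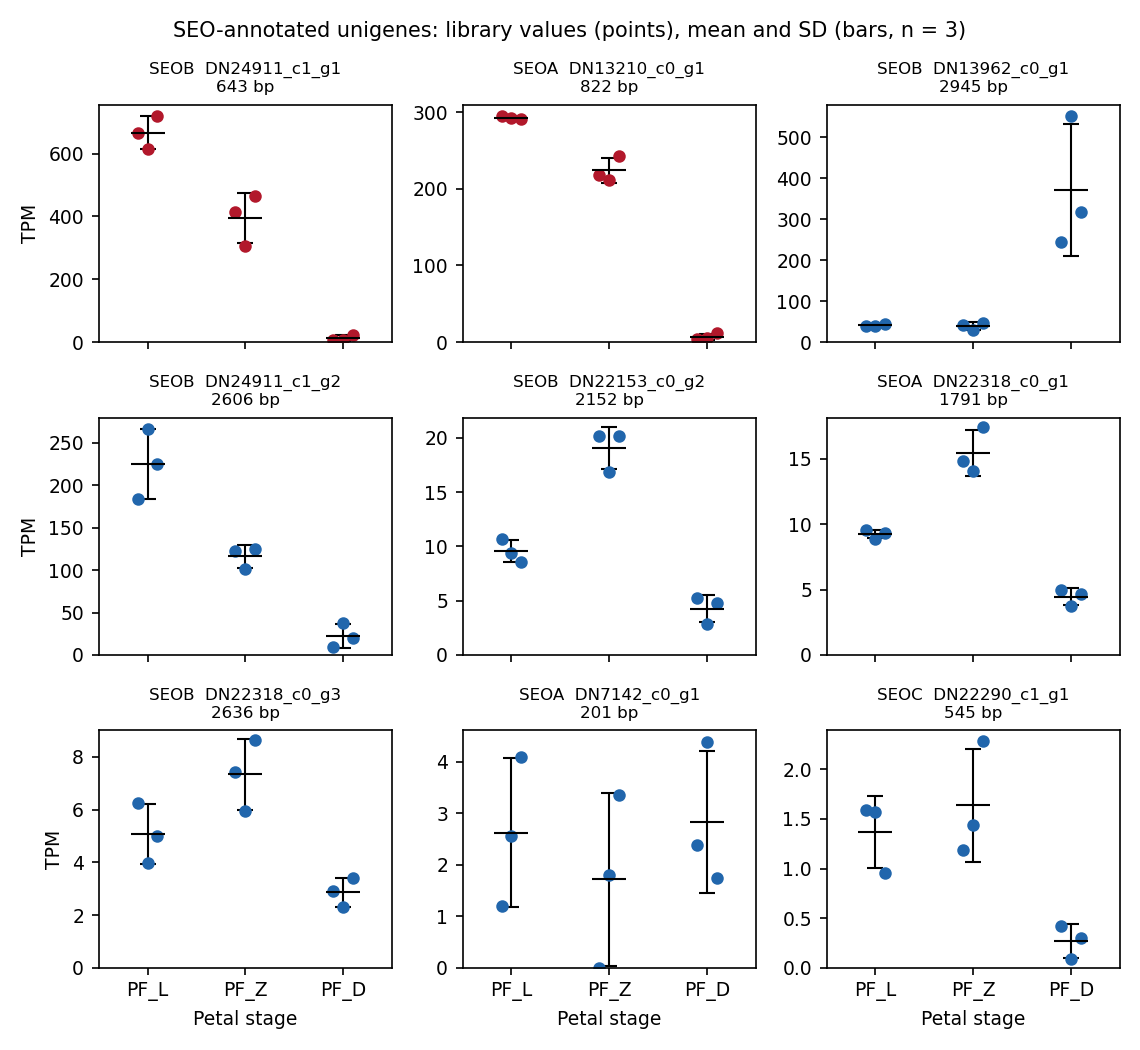
TPM of the 9 SEO-annotated unigenes by petal stage, each panel with its own linear axis starting at 0; points are libraries, horizontal marks the stage mean and bars the SD (n = 3), and SEOA and SEOB, the chosen pair, are in red. One relative of SEOB (DN13962_c0_g1) averaged 372 TPM in PF_D, against 39.0 TPM in PF_Z. The highest mean of 4 others was in PF_Z, and none of these was called higher there than in PF_L.

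The makeup of SEO transcripts in the petal thus differed between the stages. The 9 unigenes summed to 1254 ± 48.1 TPM in PF_L, 819 ± 123 TPM in PF_Z and 428 ± 170 TPM in PF_D (SD, n = 3 each). SEOA and SEOB together made up 73.1% to 79.1% of this sum in the PF_L libraries, 75.2% to 76.0% in PF_Z and 1.78% to 9.14% in PF_D. TRINITY_DN13962_c0_g1 alone made up 3.25% to 3.35% in PF_L, 4.17% to 4.998% in PF_Z and 82.0% to 90.0% in PF_D. The 6 other SEO unigenes, without the chosen pair and TRINITY_DN13962_c0_g1, summed to 253 ± 39.8 TPM in PF_L, 161 ± 18.6 TPM in PF_Z and 36.8 ± 12.8 TPM in PF_D. These sums and shares rest on values that chose the pair and carry no test. They also set short unigenes beside long ones, and the short ones may be parts of transcripts.

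**Figure D3:**
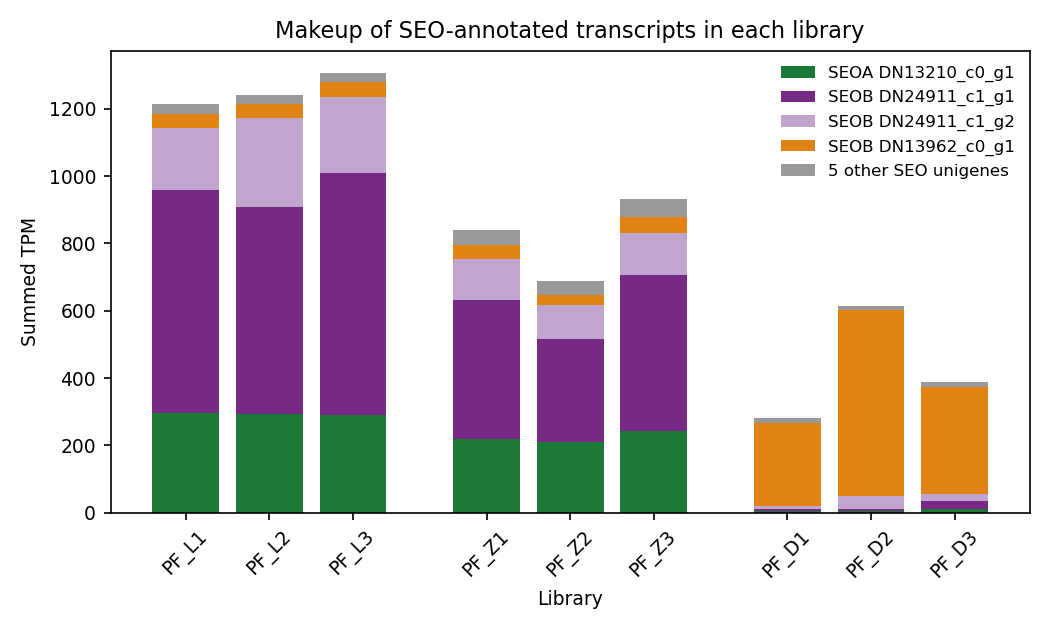
Summed TPM of the 9 SEO-annotated unigenes in each library, stacked by unigene on a linear axis starting at 0. SEOA and SEOB make up 73.1% to 79.1% of the bars of PF_L and 1.78% to 9.14% of those of PF_D, where 1 relative of SEOB (DN13962_c0_g1) fills 82.0% to 90.0%.

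Regulators of sieve element formation were followed next, since SEO proteins accumulate in young sieve elements. Of 20 unigenes on this list, 10 fell and none rose in PF_D against PF_Z by limma, where 9.07% of all unigenes fell. The median log2 fold change was -0.98, against 0.08 over all unigenes. DOF5.6 (TRINITY_DN17922_c0_g1), a Dof factor of early phloem and cambium cells in Arabidopsis, had 0.99 ± 0.41 TPM in PF_D, against 13.1 ± 2.22 TPM in PF_Z, and fell by 2.83 on the log2 scale (standard error 0.21, adjusted p = 2.1e-05). NAC086 (TRINITY_DN22457_c0_g1), which directs loss of the nucleus in Arabidopsis sieve elements and was picked after its values were seen, fell by 1.49 to 2.30 ± 0.49 TPM, against 8.22 ± 0.44 TPM in PF_Z (adjusted p = 0.00176). Without PF_Z replicate 3, 6 unigenes of the list were lower and 1 was higher.

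In PF_D against PF_L, 10 of the 20 fell and 1 rose, where 15.7% of all unigenes were lower and 9.38% higher. SMXL4 (TRINITY_DN27580_c0_g3), a relative of a protein needed for phloem formation in Arabidopsis, had 0.45 ± 0.21 TPM in PF_D, against 16.9 ± 2.66 TPM in PF_L, and fell by 3.63 (standard error 0.28, limma adjusted p = 9.5e-06). NEN3 (TRINITY_DN13887_c0_g1), named for the nucleases that act below NAC086, was the most abundant of the list and rose by 1.21 to 39.4 ± 5.81 TPM in PF_D, against 16.3 ± 0.29 TPM in PF_L (adjusted p = 0.000247). In PF_Z against PF_L, 4 were lower and none was higher, where 4.7% of all unigenes were lower and 2.15% higher. The largest fall was that of DOF5.3 (TRINITY_DN16635_c0_g2), a Dof factor of young phloem, by 1.29 to 8.74 ± 1.69 TPM in PF_Z, against 23.8 ± 9.18 TPM in PF_L (adjusted p = 0.0177). That count was 0 without PF_L replicate 2 or 3 or without PF_Z replicate 1 or 2, 2 without PF_L replicate 1, 2 after either other scaling and 7 without PF_Z replicate 3. Several unigenes on this list share an assembly component, such as 2 named SMXL4 and 1 named SMXL5, and may share reads.

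Callose synthases make the polymer that lines and closes sieve pores, CALS7 in sieve plates, and other members act in pollen and at cell plates. Of 25 such unigenes, 3 fell (12%, against 9.07% of all unigenes) and none rose in PF_D against PF_Z, with a median log2 fold change of 0.22. A CALS7 unigene (TRINITY_DN28591_c1_g2) fell by 1.28 to 2.83 ± 0.73 TPM in PF_D, against 8.26 ± 1.54 TPM in PF_Z (standard error 0.23, limma adjusted p = 0.0029). Another CALS7 unigene (TRINITY_DN16404_c0_g1) and a CALS5 unigene (TRINITY_DN18555_c1_g1) were the other 2 that fell, by 1.002 (adjusted p = 0.0364) and 1.13 (adjusted p = 0.006). Against PF_L, 2 fell in PF_D (8%, against 15.7% of all unigenes), among them the same CALS5 unigene by 1.06 (adjusted p = 0.00584). Neither of the 2 was called after scaling by median ratios or quantile normalization, and leaving out PF_L replicate 1, PF_L replicate 3 or PF_D replicate 2 left 1 of them. None was called by limma in PF_Z against PF_L. The most abundant, CALS3 (TRINITY_DN25654_c1_g4), which sets callose at plasmodesmata, had 86.5 ± 1.77 TPM in PF_L, 63.4 ± 7.25 TPM in PF_Z and 81.7 ± 15.8 TPM in PF_D, and was not called in any comparison.

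PP2 proteins are the other classical phloem proteins, lectins made in companion cells, but most of the 30 unigenes on this list matched F-box proteins with a PP2 domain, whose link to phloem is less clear. Of the 30, 7 rose and 1 fell in PF_D against PF_Z, where 8.89% of all unigenes were higher and 9.07% lower. Some of the 30 share an assembly component, such as TRINITY_DN18696_c0_g1, TRINITY_DN18696_c0_g2 and TRINITY_DN18696_c0_g3. They may share reads, so the counts need not be of separate genes. Against PF_L, 9 rose and 4 fell in PF_D (9.38% higher and 15.7% lower over all unigenes), and in PF_Z against PF_L, 1 rose and 1 fell (2.15% higher and 4.7% lower). A unigene of the phloem lectin itself, PP2A1 (TRINITY_DN17278_c0_g5), rose at each step. It had 20.9 ± 3.10 TPM in PF_D, against 7.85 ± 1.94 TPM in PF_Z (log2 fold change 1.32, standard error 0.22, limma adjusted p = 0.00171). That PF_Z level stood against 1.82 ± 0.29 TPM in PF_L (log2 fold change 1.63, adjusted p = 0.00196). A shorter unigene of this component with a match to the same lectin (TRINITY_DN17278_c0_g1, 377 bp) had overlapping stages. It had 2.82, 2.72 and 4.06 TPM in PF_L, 8.59, 4.76 and 1.79 TPM in PF_Z and 5.36, 8.3 and 7.0 TPM in PF_D. The largest rise was that of PP2B7 (TRINITY_DN13710_c0_g1), with 54.4 ± 26.8 TPM in PF_D, against 0.143 ± 0.064 TPM in PF_Z (log2 fold change 5.49, adjusted p = 1.2e-05). PP2B12 (TRINITY_DN18696_c0_g1), the most abundant, had 216 ± 16.7 TPM in PF_D, against 94.6 ± 35.0 TPM in PF_Z (log2 fold change 1.24, adjusted p = 0.00448). A unigene matching At2g02240 (TRINITY_DN26467_c0_g2) was the 1 that fell, by 1.84 to 0.10 ± 0.12 TPM in PF_D, against 2.93 ± 0.43 TPM in PF_Z. Another (TRINITY_DN17389_c0_g2) was the only one lower in PF_Z against PF_L, by 1.13 (adjusted p = 0.0336), a call lost after either other scaling and without any 1 of the PF_L libraries or of PF_Z replicates 1 and 2.

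Transporters and movement proteins of companion cells numbered 30 unigenes, of which 26 passed the filter of 1 TPM in at least 3 libraries. In PF_D against PF_Z, 2 of the 26 fell (7.69%) and 1 rose (3.85%), where 9.07% of all unigenes were lower and 8.89% higher, and the median log2 fold change was 0.19. FTIP1 (TRINITY_DN27067_c0_g1), named for a protein that moves the flowering signal FT into sieve elements, was the most abundant and fell by 1.75 to 34.1 ± 5.39 TPM in PF_D, against 117 ± 15.6 TPM in PF_Z (standard error 0.29, limma adjusted p = 0.00176). OPT3 (TRINITY_DN19324_c0_g6), a phloem transporter of iron, rose by 1.24 to 57.6 ± 18.0 TPM, against 25.4 ± 15.1 TPM (adjusted p = 0.0366), and lost the call without PF_Z replicate 1 or 2 or PF_D replicate 2 or 3. In PF_D against PF_L, 7 fell and none rose, where 15.7% of all unigenes were lower. They were 6 FTIP1 relatives and a 227 bp unigene named SUC1 (TRINITY_DN24583_c2_g1), a sucrose transporter, listed at 0 in all 3 PF_D libraries. In PF_Z against PF_L, 3 fell (4.7% lower over all unigenes), a count of 1 without any 1 of the PF_L libraries and of 7 without PF_Z replicate 3.

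**Figure D4:**
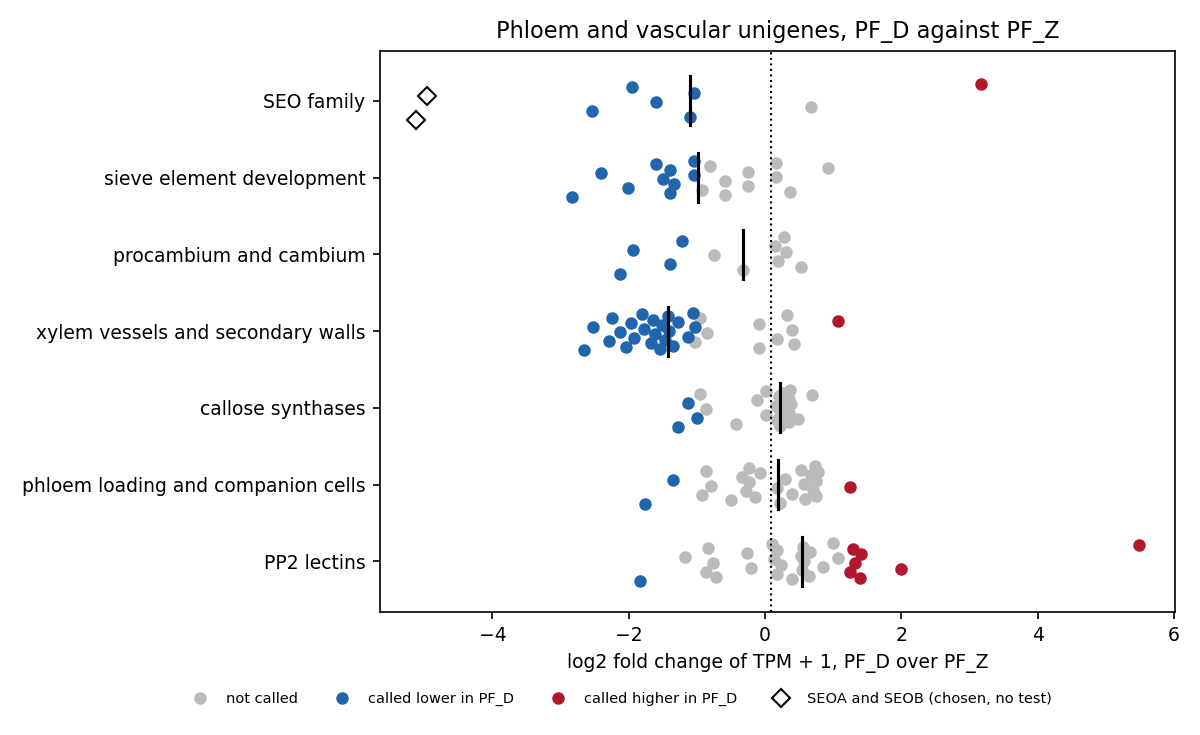
Log2 fold change of TPM + 1 in PF_D over PF_Z for each tested unigene of 7 lists; blue points were called lower in PF_D, red points higher and gray points not called, open diamonds are SEOA and SEOB, which were chosen on these values, short lines are list medians without the chosen pair and the dotted line is the median of all tested unigenes (0.08). The xylem and sieve element lists lie mostly to the left, with medians of -1.43 and -0.98, while the PP2 list has a median of 0.54 and 7 members called higher.

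The other vascular cells were read from 2 more lists. Of 11 regulators of procambium and cambium, the dividing cells from which phloem and xylem arise, 4 fell and none rose in PF_D against PF_Z (9.07% lower over all unigenes), 5 fell in PF_D against PF_L (15.7%) and 3 fell in PF_Z against PF_L (4.7%). TDR (TRINITY_DN27703_c0_g1), a receptor that keeps Arabidopsis cambium dividing, had 0.053 ± 0.059 TPM in PF_D, against 12.7 ± 1.69 TPM in PF_L, and fell by 3.69 (standard error 0.32, limma adjusted p = 2.2e-05). It had also fallen by 1.76 in PF_Z against PF_L, to 3.31 ± 1.90 TPM (adjusted p = 0.00999). A unigene of LHW (TRINITY_DN14028_c0_g1), which with its partner promotes divisions of young vascular cells in Arabidopsis, fell by 2.13 to 0.56 ± 0.24 TPM in PF_D, against 5.94 ± 1.74 TPM in PF_Z (adjusted p = 0.000351). Another LHW unigene (TRINITY_DN28135_c1_g3), the most abundant of the list, had 47.1, 55.2 and 56.6 TPM in PF_L, 21.6, 18.2 and 19.4 TPM in PF_Z and 25.4, 33.9 and 28.1 TPM in PF_D, and fell by 1.38 in PF_Z against PF_L (adjusted p = 0.000711).

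Genes of vessels and secondary walls were followed as the xylem counterpart, with no test against the course of SEOA and SEOB. Of 33 tested genes, out of 35 listed, 8 rose, 1 fell and 24 were not called in PF_Z against PF_L, where 2.15% of all unigenes were higher and 4.7% lower. In PF_D against PF_Z, 23 fell and 1 rose, where 9.07% were lower and 8.89% higher. XCP1 (TRINITY_DN13126_c0_g1), a protease of dying vessel cells, had 10.9 ± 3.30 TPM in PF_Z, against 2.92 ± 0.44 TPM in PF_L (log2 fold change 1.57, standard error 0.32, limma adjusted p = 0.0145). It had 1.94 ± 1.02 TPM in PF_D and fell by 2.04 in PF_D against PF_Z (adjusted p = 0.00126). LAC17 (TRINITY_DN21533_c1_g2), a laccase of lignin formation, had the largest fall in PF_D against PF_Z, by 2.65 to 0.44 ± 0.31 TPM, against 7.997 ± 1.53 TPM (adjusted p = 7.8e-05). The unigene that rose was IRX14 (TRINITY_DN26135_c0_g1), of xylan synthesis and the most abundant of the list, with 40.2, 43.2 and 35.3 TPM in PF_D, against 18.6, 17.6 and 18.4 TPM in PF_Z, by 1.07 (adjusted p = 0.00093), which came to 0.98 and 0.96 after the other scalings and was then not called. The median of the list was 0.74 in PF_Z against PF_L, -1.43 in PF_D against PF_Z and -0.52 in PF_D against PF_L, where 11 fell and 1 rose (15.7% lower and 9.38% higher over all unigenes). IRX15-L (TRINITY_DN19342_c0_g1), also of xylan synthesis, fell by 2.27, the most of the list there, to 1.75 ± 0.54 TPM in PF_D, against 12.1 ± 1.64 TPM in PF_L (adjusted p = 5.0e-05). The unigene that fell in PF_Z against PF_L was NAC101 (TRINITY_DN9854_c0_g1), a relative of a vessel cell regulator, which fell by 1.66 to 0.047 ± 0.081 TPM in PF_Z, against 2.32 ± 0.30 TPM in PF_L (adjusted p = 0.0109), a call lost with 5 in place of 1 added. With many of these unigenes at a few TPM, 5 in place of 1 added to the values left 6 xylem, 2 sieve element and 0 procambium unigenes called lower in PF_D against PF_Z. The 8 rises in PF_Z against PF_L were 1 without PF_L replicate 2 or 3, 3 without PF_Z replicate 1, 4 without PF_Z replicate 2 and 15 after quantile normalization.

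Markers beyond the vascular lists were read in the same libraries. The 7 class B floral homeotic unigenes, which act in petals and stamens and so do not mark petals alone, summed to 3219 to 3394 TPM in PF_L, 2860 to 3556 TPM in PF_Z and 2896 to 3529 TPM in PF_D. The most abundant, PMADS2 (TRINITY_DN23056_c0_g2), averaged 1290 ± 102 TPM in PF_L, 1085 ± 145 TPM in PF_Z and 854 ± 59.3 TPM in PF_D and was not called in any comparison. In PF_D against PF_Z, 2 of the 7 were higher, both without a gene name: TRINITY_DN14643_c0_g3 by 1.36 (limma adjusted p = 0.0234) and TRINITY_DN23186_c0_g3 by 1.28 (adjusted p = 0.00333). The call of TRINITY_DN14643_c0_g3 was lost without PF_Z replicate 1 or 2 or PF_D replicate 2 or 3.

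Most light-harvesting unigenes, which mark green tissue, were lower in the big bud than in the young bud. Whether they came from sepal or from the young petal itself was not tested. Their 31 unigenes summed to 7965, 5056 and 5969 TPM in replicates 1, 2 and 3 of PF_L, 6666, 4149 and 1730 TPM in PF_Z and 1934, 501 and 1008 TPM in PF_D. The sum in PF_Z replicate 3 was below that in PF_D replicate 1, so PF_Z and PF_D overlapped, unlike for SEOA and SEOB. Of the 31, 16 were lower and none was higher in PF_D against PF_Z by limma (9.07% lower over all unigenes), 27 were lower in PF_D against PF_L (15.7%) and 3 in PF_Z against PF_L (4.7%). AB80 (TRINITY_DN27639_c0_g1) had 6.65 ± 5.25 TPM in PF_D, against 58.8 ± 30.9 TPM in PF_Z, and fell by 3.25 (standard error 0.62, adjusted p = 0.00391). LHCB3 (TRINITY_DN21489_c0_g2) had 19.9 ± 14.9 TPM in PF_D, against 448 ± 61.7 TPM in PF_L, and fell by 4.76 (adjusted p = 0.000613). LHCA3 (TRINITY_DN20197_c0_g7), the most abundant, had 63.2 ± 37.3 TPM in PF_D, against 528 ± 396 TPM in PF_Z, and fell by 2.94 (adjusted p = 0.00781). Among the 3 lower in PF_Z against PF_L, lhcA-P4 (TRINITY_DN16844_c0_g1) fell by 1.58 (adjusted p = 0.0484), the most of the list, a call lost without any 1 of the PF_L libraries, PF_Z replicate 2 or 3 or PF_D replicate 3. Library values of the light-harvesting sum and of SEOA and SEOB are given above. With 3 libraries a stage, and SEOA at 291 to 295 TPM in PF_L, their order within stages was not read. The part of green tissue in the course of SEOA and SEOB was not tested.

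Epidermis unigenes moved in both directions. The 17 unigenes summed to 1595 to 1636 TPM in PF_L, 1194 to 1427 TPM in PF_Z and 1617 to 1794 TPM in PF_D. In PF_D against PF_Z, 4 were higher and 2 lower by limma, where 8.89% of all unigenes were higher and 9.07% lower. The 2 that were lower were PDF1 and CYP77A4, which were also lower in PF_Z against PF_L. PDF1, a protodermal factor (TRINITY_DN13966_c0_g1), averaged 505 ± 34.1 TPM in PF_L, 61.7 ± 22.5 TPM in PF_Z and 1.20 ± 0.70 TPM in PF_D, and fell by 4.80 in PF_D against PF_Z (standard error 0.30, adjusted p = 8.6e-06) and by 3.09 in PF_Z against PF_L (adjusted p = 0.000341). CYP77A4 (TRINITY_DN17679_c0_g1), a cytochrome P450 that acts on fatty acids, averaged 129 ± 19.5 TPM in PF_L, 6.74 ± 2.39 TPM in PF_Z and 0.047 ± 0.045 TPM in PF_D, and fell by 2.83 and 4.12 in the same comparisons (adjusted p = 5.2e-05 and 3.5e-05). A 450 bp unigene of FDH (TRINITY_DN24802_c1_g3), of fatty acid elongation, rose the most in PF_D against PF_Z, by 1.54 to 15.7 ± 3.99 TPM, against 4.72 ± 1.19 TPM (adjusted p = 0.0137), a call lost without PF_D replicate 2. It had 18.1, 5.06 and 9.49 TPM in PF_L. More abundant FDH unigenes had overlapping stages. TRINITY_DN24802_c1_g2 had 113, 122 and 151 TPM in PF_Z and 218, 168 and 135 TPM in PF_D. TRINITY_DN21888_c0_g2 had 69.5, 89.2 and 82.2 TPM in PF_Z and 121, 84.1 and 70.9 TPM in PF_D. The wax synthesis relative CER1 (TRINITY_DN28427_c4_g2) rose by 2.58 to 179 ± 15.3 TPM in PF_D, against 29.2 ± 3.03 TPM in PF_L (adjusted p = 2.8e-05). The most abundant of the list, another CER1 unigene (TRINITY_DN15211_c0_g2), had 449 ± 23.1 TPM in PF_D, against 215 ± 18.1 TPM in PF_L, and rose by 1.06 (adjusted p = 0.000759), a call lost without PF_L replicate 3.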

How the data were processed

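The study made 9 petal RNA libraries and read them on an Illumina platform. Reads of all libraries were assembled together with Trinity, the longest transcript of each cluster was kept as the unigene, and unigenes were annotated with DIAMOND. The file deposited by the authors holds TPM, corrected for length and library total, and the program behind it is not given in the sources used here. Bowtie 0.12.2, HISAT2 2.0 and StringTie 1.3.0 appear in the submitters' processing notes with no role. TPM keeps no counts, so the counting error of a value is unknown, and it weighs most at a few TPM. Every library summed to 993148 to 994911 TPM.

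The 47924 of 50285 unigenes that reached 1 TPM in 3 or more libraries were tested. Values were taken as log2(TPM + 1), and limma 3.58.1 (R 4.3.3) was run with a mean for each stage, a variance trend and Benjamini-Hochberg adjustment over all unigenes. Adding 1 understates changes of rare unigenes. Groups of 3 against 3 cannot reach an exact permutation p below 0.1. SEOA, SEOB and the gene lists were chosen with earlier results of these data known. Lists were matched by gene name or description, with 2 beta-amylase unigenes that share the name BAM3 left out. They are the SEO family, callose synthases, PP2 lectins, sieve element development, companion cells, procambium, xylem, green tissue, epidermis, petal identity and, added after the data were seen, other unigenes with a phloem GO term. Named genes are, beside the SEO unigenes, the called members of each list with the largest fall and rise, the most abundant member, and the 6 unigenes nearest to SEOA or SEOB, with exceptions stated. The procedures were tested on simulated data. The alternatives were other pseudocounts, filters, scalings, variance models and thresholds, a replicate block and leaving out each library. Figures were drawn with matplotlib 3.10.9. Sequences of the unigenes and pigment measurements were not used here.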

Additional observations from a re-analysis of the deposited data

How the results depend on the processing

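The log2 differences of SEOA and SEOB kept their direction under every alternative run. Leaving out 1 library gave -5.34 to -4.68 (PF_D against PF_Z), -5.73 to -5.07 (PF_D against PF_L) and -0.45 to -0.35 (PF_Z against PF_L) for SEOA, and -5.70 to -4.75, -6.47 to -5.52 and -0.90 to -0.60 for SEOB. With 5 added to the TPM, SEOA differed by -4.32 (PF_D against PF_Z) and -4.70 (PF_D against PF_L). After scaling by median ratios the PF_Z against PF_L differences were -0.15 for SEOA and -0.54 for SEOB. The ratio of SEOB to SEOA rests on the values that chose the pair, so its exact permutation p over the 1680 assignments of libraries to stages, 0.139 with 1 added, 0.0393 with 5 added and 0.075 to 0.307 with 1 library left out, supports nothing. Counts of called unigenes over the 7 phloem and vascular lists were, lower and higher, 48 and 10 (PF_D against PF_Z), 41 and 12 (PF_D against PF_L) and 12 and 9 (PF_Z against PF_L). The tested unigenes were 7 SEO, 25 callose synthase, 30 PP2, 20 sieve element, 26 companion cell, 11 procambium and 33 xylem unigenes. Over all unigenes the shares called lower and higher were 9.07% and 8.89%, 15.7% and 9.38%, and 4.7% and 2.15% in the same order. With 5 added, lower counts over the lists were 12, 17 and 4, and 0 were higher in PF_Z against PF_L. A filter of 5 TPM gave 28, 27 and 5 for the lower counts of PF_D against PF_Z and PF_D against PF_L and the higher count of PF_Z against PF_L. For PF_Z against PF_L, 7 were lower with 0.1 added and in a model of 6 libraries, 3 were lower and 2 higher at an adjusted p under 0.01, and 14 and 18 were higher after median ratios and quantile normalization. Leaving out 1 library gave 3 to 22 lower, the most without PF_Z replicate 3, and 2 to 8 higher. The cause was not tested. Over all unigenes, 5 added gave 1991 lower and 1788 higher (PF_D against PF_Z), 3200 and 2184 (PF_D against PF_L) and 813 and 543 (PF_Z against PF_L), where 1 added gave 4346 and 4262, 7545 and 4497, and 2251 and 1029. An adjusted p under 0.01 gave 2835 and 2808, 5537 and 3412, and 849 and 414. PF_Z against PF_L ran from 894 lower and 564 higher without PF_L replicate 3 to 3186 and 1508 without PF_Z replicate 3. Whether replicate numbers pair the samples is not given in the sources used here. Same-numbered libraries deviated from their stage means with correlations of -0.10 to 0.04 and others with -0.09 to 0.14. These values show no sign of pairing but cannot exclude it. With the number as a block, 42 and 10, 38 and 12, and 10 and 8 list unigenes were called, and the SEOC call was lost (limma adjusted p = 0.0558). Of 2775 values of named genes under alternatives, 2638 kept their side of the threshold, 121 lost a call, 16 gained one and 0 changed direction while called. The unknown depth limits what can be said of unigenes at a few TPM.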

Other observations

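A further 62 unigenes carried a phloem or sieve element term in the deposited GO annotation and stood in none of the other lists, and 60 of them were tested. This list was added after the data were seen. In PF_D against PF_Z, 10 fell and 4 rose by limma, with a median log2 fold change of -0.12 (all tested unigenes 0.08), where 9.07% of all unigenes were lower and 8.89% higher. In PF_D against PF_L, 15 fell and 3 rose (15.7% lower and 9.38% higher over all unigenes), and in PF_Z against PF_L, 3 fell (5%, against 4.7%) and none rose. LRP1 (TRINITY_DN22997_c0_g1), a SHI-family regulator first known from lateral roots of Arabidopsis, had 1.52 ± 0.56 TPM in PF_D, against 14.3 ± 2.92 TPM in PF_Z, and fell by 2.61 on the log2 scale (standard error 0.24, adjusted p = 6.7e-05, n = 3 each). TAR2 (TRINITY_DN18563_c1_g1), an aminotransferase of auxin synthesis, had 10.9 ± 4.10 TPM in PF_D, against 2.53 ± 1.23 TPM in PF_Z, and rose by 1.75 (standard error 0.34, adjusted p = 0.00465). VAB (TRINITY_DN14748_c0_g1), a VAN3-binding protein of leaf vein patterning, had 0.477 ± 0.188 TPM in PF_D, against 9.50 ± 2.77 TPM in PF_L, and fell by 2.81 (adjusted p = 5.5e-05). ARF5 (TRINITY_DN21836_c0_g2), an auxin response factor that starts vein formation, had 3.24 ± 1.31 TPM in PF_Z, against 10.1 ± 3.23 TPM in PF_L, and fell by 1.40 (adjusted p = 0.0195). TPL (TRINITY_DN26711_c0_g3), a co-repressor and the most abundant of the list, had 327 ± 65.3 TPM in PF_D, against 238 ± 64.0 TPM in PF_Z, and was not called. The falls of VAB and ARF5 in PF_Z against PF_L were not called in 8 and 6 of 20 alternatives, among them each of PF_L replicates 2 and 3 and PF_Z replicate 1 left out, with VAB also without PF_Z replicate 2.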
